A study of Mus musculus with 2 samples.

Results

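The genes of elastin (Eln), the fibrillins (Fbn1 and Fbn2), the fibulins (Fbln1, Fbln2, Fbln5, Efemp1 and Efemp2) and elastin microfibril interfacer 1 (Emilin1) were followed through the cells of the aneurysmal mouse aorta. They were taken by gene symbol, and all 9 were found once each among 31253 genes. The cells came from mouse abdominal aorta into which porcine pancreatic elastase (PPE) had been infused, which digests elastin and is used to make an abdominal aortic aneurysm. The WT library came from C57BL/6J mice and the Gsdme-KO library from mice with a global deletion of Gsdme, and both received PPE, so no undamaged aorta was compared. Gsdme encodes gasdermin E, which forms pores in the cell membrane once cleaved by caspase 3. Each genotype was 1 library made on the BD Rhapsody system, and the time after PPE and the number, age and sex of the mice were not given in the sources used here. With single libraries a difference between them could not be tested: intervals are 95% and exact, and cover counting error only, and a difference of genotype and a difference of library cannot be told apart.

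Elastic fibres are made of a core of cross-linked elastin laid on a scaffold of microfibrils, which are polymers of fibrillin. Fibulins and emilins bind elastin, fibrillin and the cross-linking enzymes, and several of them are needed to place elastin on the scaffold. In the aortic wall elastin is laid down mainly by smooth muscle cells of the media during development and growth, and adult tissue replaces lost elastic fibres poorly.

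The libraries held 7736 and 9034 barcodes with 38988898 and 52532964 UMIs (unique molecular identifiers, each standing for 1 captured transcript). After filtering, 7619 WT and 8783 Gsdme-KO cells remained, with medians of 3835 and 4060 UMIs, and 65 kept barcodes occurred in both libraries. Cells were clustered without the 9 genes and 50 genes of related pathways, so that neither set defined a cluster. Levels are given as CPM, the UMIs of a gene per 1000000 of the UMIs summed over a class of cells in 1 library. Fibroblast-like cells numbered 956 and 1492, smooth muscle-like cells 63 and 173, endothelial-like cells 146 and 195 and mesothelial-like cells 44 and 58 in the WT and the Gsdme-KO library. The smooth muscle-like cluster also carried the pericyte marker Rgs5 among its 10 leading genes, and its fibroblast markers summed to 54543 and 34143 CPM, against 43575 and 43898 CPM in fibroblast-like cells. The name therefore stands for a cluster led by contractile genes and not for purified medial cells. Another 3 clusters best matched fibroblasts but stayed unnamed, with 0.249% and 0.899%, 2.57% and 4.38%, and 2.78% and 4.47% of the WT and the Gsdme-KO cells. Gsdme itself was counted at 5.53 CPM (215 UMIs) in the WT and 2.55 CPM (133 UMIs) in the Gsdme-KO library, so transcripts of the gene were still captured there. The deleted exons are unknown from the labels, and these counts do not test the deletion.

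In the mouse genome (GRCm38, GENCODE M21) Eln lies at chr5:134702593-134747323 and Fbn1 at chr2:125300594-125507993, both on the minus strand. Fbln1 lies at chr15:85205949-85286535 on the plus strand, Fbln2 at chr6:91212455-91272540 on the plus strand and Fbln5 at chr12:101746565-101819055 on the minus strand. Efemp1, also called fibulin-3, lies at chr11:28853204-28926743, Efemp2, also called fibulin-4, at chr19:5473954-5482517, and Emilin1 at chr5:30913402-30921277, all on the plus strand. Efemp2 overlaps Mus81 on the opposite strand, and Eln, Fbn1 and Fbn2 each overlap a gene model on the opposite strand. Use of strand in the counting is not stated in the labels, so reads in these overlaps cannot be told apart.

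The 250 bases before the RefSeq start (GRCm38.p6) are shown for Fbln5, which was highest in smooth muscle-like cells, and for Fbln1 and Efemp1, which lay on opposite sides of a split between the 2 fibroblast-like clusters. Of the 9 genes 7 had a promoter in the table used. Capitals mark a match, on either strand, to the AP-1 site TGANTCA, the GC box GGGCGG or the CCAAT box CCAAT. The TATA box TATAAA and the CArG box, the serum response factor motif common in contractile genes, were searched as well, all on both strands.
Fbln5, chr12:101819120-101819369, minus strand: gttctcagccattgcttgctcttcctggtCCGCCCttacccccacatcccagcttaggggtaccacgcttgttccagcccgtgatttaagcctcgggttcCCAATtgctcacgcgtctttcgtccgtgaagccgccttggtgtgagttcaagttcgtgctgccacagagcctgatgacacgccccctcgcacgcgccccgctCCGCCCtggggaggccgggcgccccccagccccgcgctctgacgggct
Fbln1, chr15:85205699-85205948, plus strand: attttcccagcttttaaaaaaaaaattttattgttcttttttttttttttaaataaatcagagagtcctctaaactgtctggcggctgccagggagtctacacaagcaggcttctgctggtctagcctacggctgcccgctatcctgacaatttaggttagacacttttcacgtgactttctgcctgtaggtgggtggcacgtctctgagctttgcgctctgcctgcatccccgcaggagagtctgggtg
Efemp1, chr11:28852955-28853204, plus strand: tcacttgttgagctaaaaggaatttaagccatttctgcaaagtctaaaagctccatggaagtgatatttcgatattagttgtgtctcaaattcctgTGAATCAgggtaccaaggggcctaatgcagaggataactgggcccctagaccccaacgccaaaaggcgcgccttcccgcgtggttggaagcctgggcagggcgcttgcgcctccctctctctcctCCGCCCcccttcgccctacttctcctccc
The Fbln5 window held a CCAAT box from 150 to 146 bases before the start and 2 GC boxes on the other strand. Efemp1 held a match to the loose AP-1 pattern, with A in the middle, from 154 to 148 bases before the start and a GC box. Fbln1 held none of the 5 motifs. Of 27025 promoter windows of this length, 6.87% held the loose AP-1 pattern, 32.9% the GC box, 34.5% the CCAAT box, 13.0% TATAAA and 1.40% the CArG box. None of the 7 windows held TATAAA or a CArG box. The RefSeq start lay 1555 bases from the GENCODE start for Fbn1, 384 for Emilin1 and 309 for Fbln2. The windows of these genes lie inside the GENCODE gene, so the search does not cover the bases before that start.

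Eln, the precursor of the elastin core, was highest in smooth muscle-like cells of both libraries and higher there in the Gsdme-KO library. Its level was 11968 CPM (5326 UMIs) in the WT and 28266 CPM (26475 UMIs) in the Gsdme-KO smooth muscle-like cells, a ratio of 2.36 (interval 2.29 to 2.43). Of the 5993 genes with at least 10 CPM in the higher library and 30 UMIs over both, 12.2% were at least 1.5-fold higher in Gsdme-KO cells and 12.4% at least as much lower, and the Eln ratio lay at percentile 97.1. Eln ranked among the 10 leading genes of this cluster, although it took no part in the clustering. The median cell held 9114 CPM of Eln in the WT and 17572 CPM in the Gsdme-KO library, with lower quartiles of 260.4 and 2258 CPM and upper quartiles of 22325 and 55186 CPM. Cells therefore varied widely within each library, and the tenth of cells with most Eln UMIs held 52.7% of them in the WT and about as many in the Gsdme-KO library. Eln was found in 76.2% and 89.0% of these cells (medians of 3699 and 3804 UMIs), and in 65.5% of 55 and 83.2% of 143 cells thinned to 1000 UMIs. Neutrophil-like cells, which are not known to make elastin, gave 5.36% and 8.40% (medians of 1691 and 1600 UMIs), and 2.47% and 5.34% when thinned.

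The size of this Eln difference depended on which cells were counted. Among smooth muscle-like cells with at most 10% mitochondrial UMIs the level was 11956 CPM in 45 WT cells and 18037 CPM in 97 Gsdme-KO cells. Among those above 10% it was 12019 CPM in 18 WT cells and 45254 CPM in 76 Gsdme-KO cells. The WT level was alike on both sides of the split, whereas the Gsdme-KO level was higher in the cells with more mitochondrial UMIs. With the libraries clustered separately, 78 further Gsdme-KO cells, 76 of them from fibroblast-like cluster 0, joined the smooth muscle-like class, and the ratio was 1.28 (12345 and 15823 CPM). The 78 joining cells had 2088 CPM of Eln. Cells that were smooth muscle-like in both clusterings had 12536 CPM (57 WT cells) and 28506 CPM (167 Gsdme-KO cells). Beside the Eln difference, the 8 smooth muscle markers summed to 5957 and 8869 CPM with 7 of them higher in the Gsdme-KO library, the 5 pericyte markers to 1672 and 2887 CPM with 5 higher, and the 7 fibroblast markers to 54543 and 34143 CPM with 6 lower. The median mitochondrial share of the class was 7.13% and 9.04%. The part of these shifts in the Eln ratio was not tested.

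**Figure D1:**
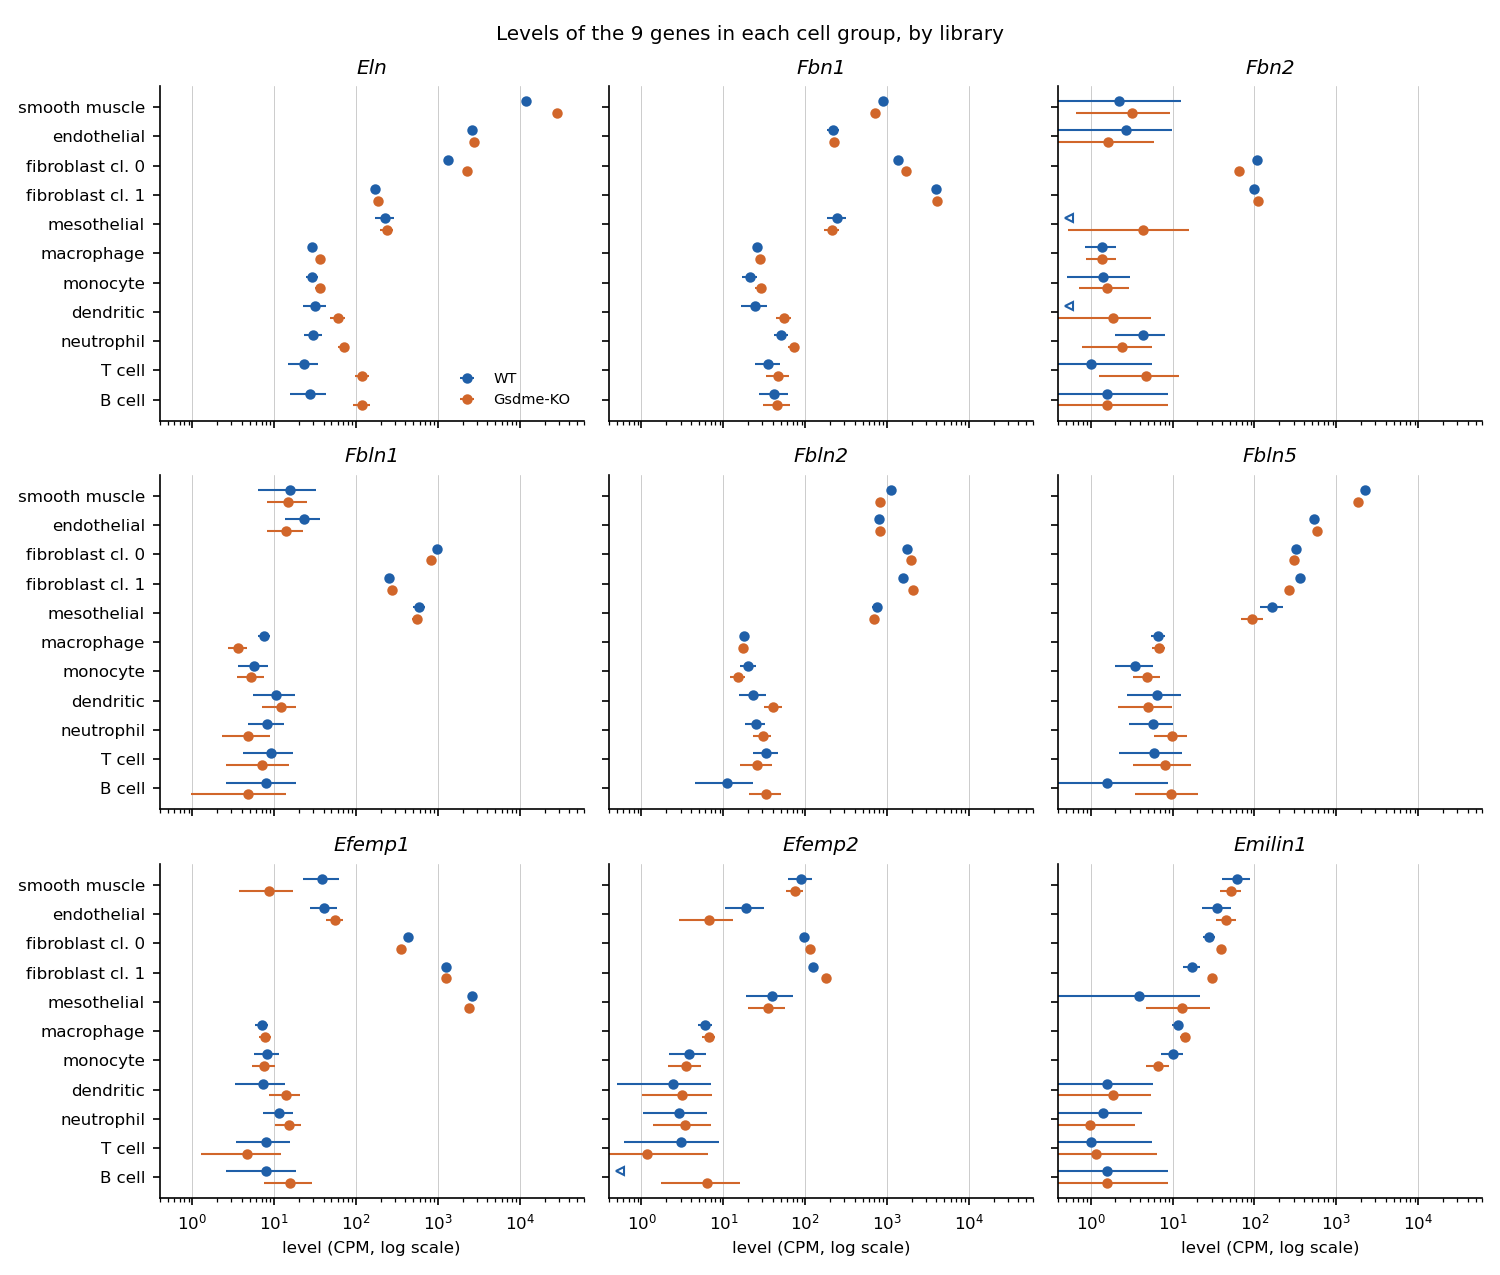
Level of each of the 9 genes (CPM, log scale) in 11 groups of cells, with fibroblast-like cells shown as their 2 clusters; points are the WT (blue) and the Gsdme-KO (orange) library, bars are exact 95% Poisson intervals that may run past the left edge, and hollow triangles mark 0 UMIs. Eln and Fbln5 were highest in smooth muscle-like cells, Fbn1, Fbn2, Fbln2 and Efemp2 in fibroblast-like cells and Efemp1 in mesothelial-like cells.

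By summed UMIs endothelial-like cells came next for Eln, with 2568 CPM in the WT and 2715 CPM in the Gsdme-KO library. The ratio was 1.06 (0.999 to 1.12). The WT value rested on 1 cell, which held 1281 of the 1902 Eln UMIs of the class. Without the cell with most Eln UMIs in each library the levels were 868 and 2243 CPM, a ratio of 2.58. Fibroblast-like cells had 722 and 922 CPM on the same terms, and their cluster 0, with all its cells, 1315 and 2257 CPM. The tenth of endothelial-like cells with most Eln UMIs held 96.0% and 90.4% of them. The median endothelial-like cell held 0 CPM in both libraries, against 120 and 130 CPM in fibroblast-like cells, so this rank rests on few cells. In cells without a UMI of any of 13 smooth muscle and pericyte markers Eln was 872 CPM (87 cells) and 642 CPM (95 cells), and in cells with at least 1 such UMI it was 3446 CPM (59 cells) and 3393 CPM (100 cells). The cells without a marker UMI were shallower, with medians of 1530 and 1392 UMIs against 5301 and 7217. The cell with 1281 Eln UMIs was among the 59 WT cells, and the level of the other 58 was 866 CPM (783 to 955). WT cells without a marker UMI stood at 549 CPM (460 to 650) without their own highest cell. In the Gsdme-KO library the levels without the highest cell were 2770.3 CPM with a marker UMI and 463 CPM without one. Cells with a marker UMI thus stayed higher in each library, but they were also the deeper cells, and the cause of the split was not tested. No direction between the libraries is read from Eln in this class.

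Fibroblast-like cells fell into 2 clusters that differed in Eln by far more than the libraries did. In cluster 0, led by Cpxm2, Mfap4 and C7, Eln was 1315 CPM in the WT and 2257 CPM in the Gsdme-KO library. In cluster 1, led by Sema3c, Bmp3 and Cd55, it was 172 and 185 CPM. The level in cluster 1 was 0.131 (0.121 to 0.142) of that in cluster 0 in the WT library and 0.0820 (0.0782 to 0.0860) of it in the Gsdme-KO library. Between the libraries Eln was higher by 1.72-fold (1.67 to 1.77) in cluster 0 of the Gsdme-KO library and by 1.07-fold (0.987 to 1.17) in cluster 1. In cluster 0 the difference was present in cells with a muscle or pericyte marker UMI (1589 and 2478 CPM) and in cells without one (649 and 923 CPM), although the summed pericyte markers were also higher in Gsdme-KO, at 279 and 480.4 CPM with 5 of 5 higher, as were the smooth muscle markers, at 56.8 and 98.6 CPM with 5 of 8 higher. Mesothelial-like cells stood near cluster 1, at 226 CPM in the WT and 235 CPM in the Gsdme-KO library.

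**Figure D2:**
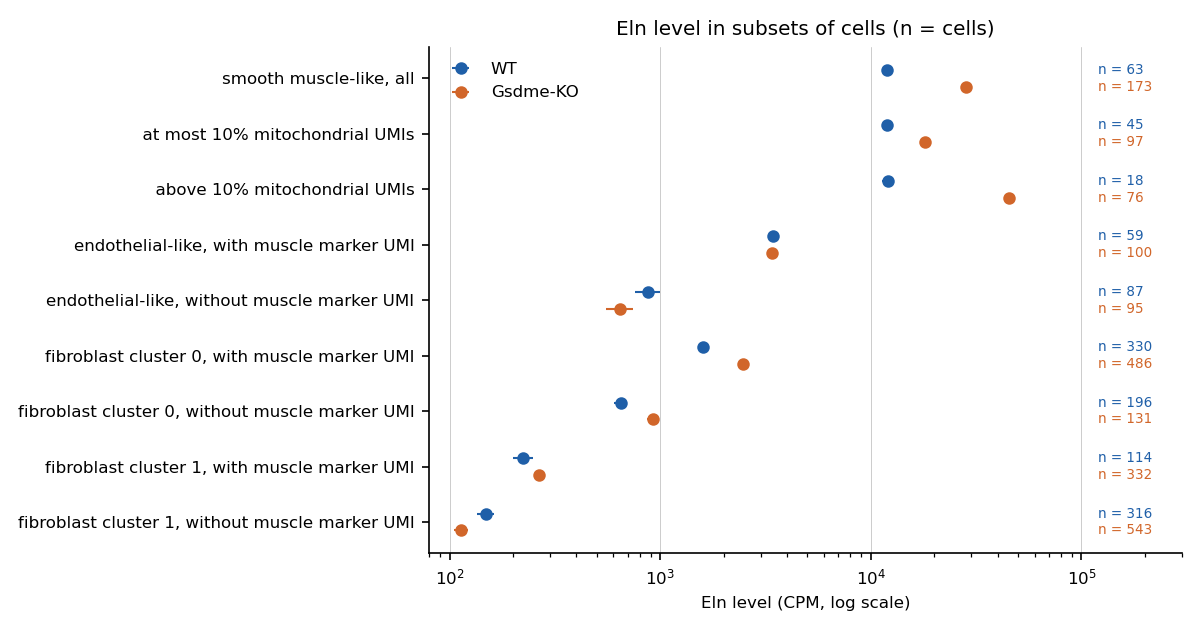
Eln level (CPM, log scale) in subsets of cells, with exact 95% Poisson intervals and the number of cells at the right; blue is WT and orange Gsdme-KO. The libraries lie furthest apart in smooth muscle-like cells above 10% mitochondrial UMIs (12019 and 45254 CPM), and 1 cell carries the WT value of endothelial-like cells with a muscle or pericyte marker UMI (3446 CPM, or 866 CPM without it).

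Through the number and level of these cells, the source of Eln transcripts differed between the libraries. Smooth muscle-like cells made up 0.827% of the WT and 1.97% of the Gsdme-KO library and held 35.0% (34.2 to 35.8) and 54.5% (54.1 to 54.9) of all Eln UMIs. Fibroblast-like cells held 44.0% and 33.6%, and endothelial-like cells 12.5% and 6.78%. Immune cells carried little Eln: neutrophil-like cells had 30.1 and 70.4 CPM, or 7.69% and 7.56% of the level over all kept cells of their library. B cell-like cells had 27.1 and 117 CPM and T cell-like cells 23.0 and 119 CPM, where 1 Gsdme-KO cell held 28 of 102 UMIs. The Eln level of these immune classes was higher in the library with more Eln over all cells, and their ratios are not read as a difference within immune cells.

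Fbln5 is a fibulin that binds tropoelastin and cell-surface integrins and is required for elastic fibre assembly. By summed UMIs it was spread over the cell types in the order of Eln. Its level was 2245 CPM in the WT and 1829.9 CPM in the Gsdme-KO smooth muscle-like cells, 540.2 and 575 CPM in endothelial-like cells and 336 and 279 CPM in fibroblast-like cells. Smooth muscle-like cells were thus the highest class in both libraries, and mesothelial-like cells lay lower, at 164 and 93.7 CPM. The endothelial-like levels were 359 and 469 CPM without the highest cell of each library. In endothelial-like cells without a muscle or pericyte marker UMI they were 293 and 298 CPM, in WT below the fibroblast-like level. Over all smooth muscle-like cells Fbln5, unlike Eln, was lower in the Gsdme-KO library (ratio 0.815, 0.754 to 0.882). The mitochondrial split used for Eln gave opposite directions for Fbln5. At or below 10% mitochondrial UMIs its Gsdme-KO level was 1233 CPM, against a WT level of 2291 CPM. Above 10% the Gsdme-KO level was the higher, as for Eln, at 2821 CPM (2648 to 3002) against 2047 CPM (1752 to 2377). Fbln5 was also lower in fibroblast-like cluster 1 of the Gsdme-KO library (0.748, 0.703 to 0.796). In cluster 0 it stood at 0.95 (0.887 to 1.02), or 1.05 with TMM scaling (trimmed mean of M-values). With cells thinned to 1000 UMIs each the smooth muscle-like ratio of Fbln5 was 1.03, so no direction holds there, and it was 0.522 with the libraries clustered separately. Cells that were smooth muscle-like in both clusterings had 2353 and 1841 CPM of Fbln5, and the 78 joining Gsdme-KO cells 533 CPM.

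Efemp2, a fibulin that recruits lysyl oxidase to tropoelastin, was highest in fibroblast-like cells, with 109 CPM in the WT and 156 CPM in the Gsdme-KO library. It was higher in the Gsdme-KO library in fibroblast-like cells as a whole (1.43, 1.32 to 1.54) and in both clusters, at 1.20 (1.07 to 1.36) in cluster 0 and 1.46 (1.32 to 1.61) in cluster 1. Smooth muscle-like cells had 87.6 and 74.7 CPM, a ratio of 0.853 whose interval of 0.568 to 1.30 spans 1, and in WT the Efemp2 levels of the 2 classes did not differ beyond counting error. Endothelial-like cells had 14 and 8 UMIs, which were too few for a ratio.

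Emilin1, a glycoprotein at the interface of elastin and microfibrils that restrains TGF-beta processing, was the member with the fewest UMIs, 522 in the WT and 1033 in the Gsdme-KO library. Its level was 60.7 and 51.2 CPM in smooth muscle-like cells, 35.1 and 45.3 CPM in endothelial-like cells and 22.7 and 33.4 CPM in fibroblast-like cells. The intervals of the smooth muscle-like and endothelial-like levels overlapped in both libraries. In fibroblast-like cells it was higher in the Gsdme-KO library (1.47, 1.25 to 1.74), with 1.40 in cluster 0 and 1.75 (1.35 to 2.28) in cluster 1, but the ratio was 0.999 with cells thinned to 1000 UMIs. Macrophage-like cells had only 11.5 and 14.0 CPM, yet through their number they held 37.4% and 23.4% of all Emilin1 UMIs. Monocyte-like cells had 10.1 and 6.62 CPM, from 43 and 38 UMIs, and neutrophil-like cells 1.43 and 0.971 CPM, from 3 and 2 UMIs. The Emilin1 levels of macrophage-like and monocyte-like cells thus both lay above that of neutrophil-like cells in both libraries. The largest macrophage-like cluster differed between the libraries, cluster 6 in WT (1059 of 2275 cells) and cluster 14 in Gsdme-KO (971 of 2005 cells).

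Fbn1, which forms the microfibrils of the adult vessel and is the gene mutated in Marfan syndrome, was a fibroblast gene in these cells. Its level was 2627 CPM in the WT and 3177 CPM in the Gsdme-KO fibroblast-like cells, against 901 and 715 CPM in smooth muscle-like, 219 and 227 CPM in endothelial-like and 242 and 211 CPM in mesothelial-like cells. Fibroblast-like cells held 91.8% of all Fbn1 UMIs in the WT and 90.5% in the Gsdme-KO library. Within them Fbn1 ran opposite to Eln, at 1369 and 1694 CPM in cluster 0 but 3942 and 4049 CPM in cluster 1, where it was 2.88-fold (2.80 to 2.96) and 2.39-fold (2.34 to 2.44) higher. Between the libraries the ratio was 1.24 (1.20 to 1.28) in cluster 0, 1.03 (1.01 to 1.05) in cluster 1 and 0.794 (0.700 to 0.901) in smooth muscle-like cells, and in the last class it was 1.48 with the libraries clustered separately. Cells that were smooth muscle-like in both clusterings had 925 and 715 CPM of Fbn1, and the 78 joining Gsdme-KO cells 2087 CPM.

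Fbn2, the fibrillin of developing tissue, at chr18:58008623-58210487 on the minus strand, was found almost only in fibroblast-like cells, which held 92.4% of its 984 UMIs in the WT and 89.4% of its 1804 UMIs in the Gsdme-KO library. Smooth muscle-like cells had 1 and 3 UMIs and endothelial-like cells 2 and 2. The level was 107 and 64.4 CPM in cluster 0, a ratio of 0.604 (0.528 to 0.691). Cluster 0 cells with a muscle or pericyte marker UMI had 96.8 CPM in the WT and 54.1 CPM in the Gsdme-KO library. Those without one had 130 CPM (112 to 152) and 126 CPM (104 to 152), so the difference was not seen in them. Cluster 1 held 98.7 and 111 CPM, a ratio of 1.13 (1.01 to 1.26). Cluster 0 and cluster 1 therefore differed little in the WT library (cluster 1 over cluster 0, 0.926, 0.811 to 1.06) and by 1.73-fold (1.54 to 1.94) in the Gsdme-KO library. Few cells carried the gene: the tenth of cluster 0 cells with most Fbn2 UMIs held 80.7% of them in WT and 83.6% in Gsdme-KO.

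Fbln1 and Efemp1, fibulins of the basement membrane and of loose connective tissue, divided the fibroblast-like clusters in opposite ways. Fbln1 was 985 CPM in the WT and 826 CPM in the Gsdme-KO library in cluster 0, but only 252 and 271 CPM in cluster 1. Efemp1 was 433 and 357 CPM in cluster 0, while cluster 1 held 1246 and 1256 CPM. Cluster 1 over cluster 0 was thus 0.255 and 0.328 for Fbln1 and 2.88 and 3.51 for Efemp1 in the WT and the Gsdme-KO library. Both genes were also high in mesothelial-like cells, the lining of serous cavities, where Efemp1 reached 2639 and 2418 CPM, its highest level in any class, and Fbln1 585 and 552 CPM. Both were low in smooth muscle-like cells, with Fbln1 at 15.7 and 14.9 CPM and Efemp1 at 38.2 and 8.54 CPM from 17 and 8 UMIs.

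Over fibroblast-like cells as a whole Fbln1 was lower in the Gsdme-KO library (627 and 476 CPM, ratio 0.760, 0.735 to 0.787) and Efemp1 higher (830.4 and 923 CPM, 1.11, 1.08 to 1.14). Within clusters these differences were smaller or turned: Fbln1 stood at 0.838 (0.805 to 0.873) in cluster 0 and 1.08 (1.00 to 1.15) in cluster 1, and Efemp1 at 0.825 (0.776 to 0.877) and 1.01 (0.977 to 1.04). The 2 libraries held different mixtures, 526 and 617 cells of cluster 0 and 430 and 875 cells of cluster 1. With the same cluster weights in both libraries the Efemp1 ratio was 0.965 and the Fbln1 ratio 0.892, while that of Eln was 1.63.

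Fbln2, a fibulin that binds elastin and fibrillin and overlaps in function with Fbln5 in vessels, was spread evenly over the fibroblast-like clusters. It was 1735 CPM in the WT and 1967 CPM in the Gsdme-KO library in cluster 0. It stood at 1582 and 2049.8 CPM in cluster 1, with 1128 and 810.3 CPM in smooth muscle-like, 785 and 817 CPM in endothelial-like and 760.0 and 682 CPM in mesothelial-like cells. The 2 clusters were close in both libraries (cluster 1 over cluster 0, 0.912 and 1.04). Between the libraries Fbln2 was higher in Gsdme-KO in cluster 0 (1.13, 1.10 to 1.17) and cluster 1 (1.30, 1.26 to 1.33) and lower in smooth muscle-like cells (0.718, 0.641 to 0.806), where it was 1.47 with the libraries clustered separately. Cells that were smooth muscle-like in both clusterings had 1180 and 813 CPM of Fbln2, and the 78 joining Gsdme-KO cells 2744 CPM.

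**Figure D3:**
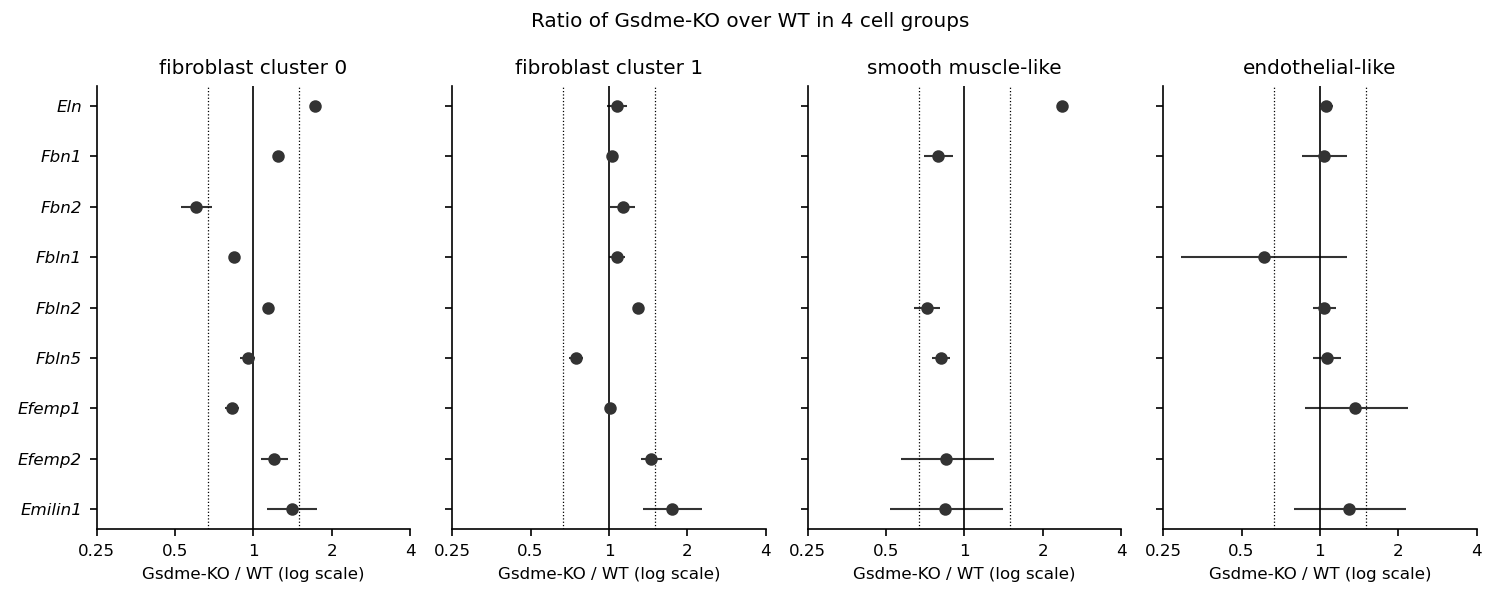
Ratio of the Gsdme-KO over the WT level (log scale) for each gene in 4 groups of cells, with exact 95% intervals for counting error; dotted lines mark 1.5-fold either way and genes under the floor on low levels are not drawn. Eln lies past 1.5-fold in smooth muscle-like cells (2.36) and in cluster 0 (1.72), Fbn2 below it in cluster 0 (0.604) and Emilin1 above it in cluster 1 (1.75).

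In fibroblast-like cells all 9 genes passed the same floor of 10 CPM in the higher library and 30 UMIs over both. Of them 6 were higher and 3 (Fbn2, Fbln1 and Fbln5) lower in the Gsdme-KO library, and 0 were at least 1.5-fold higher and 0 at least 1.5-fold lower, where 3.05% and 8.44% of all 8633 genes were. Their median log2 ratio was 0.27, beside -0.13 over all genes past the floor. TMM scaling moved every log2 ratio in this class up by 0.17, so that 7 genes were above 1, with Fbn2 turned to 1.03, and 2 were called higher, Efemp2 at 1.60 and Emilin1 at 1.65. The same scaling turned the split of all genes from 263 higher and 729 lower to 539 and 406. Macrophage markers in the fibroblast-like cells summed to 501 CPM in the WT and 242 CPM in the Gsdme-KO library, with 8 of 8 lower. In the 211 WT and 746 Gsdme-KO cells at or below a common share of those markers the median log2 ratio of the 9 genes was 0.28 and Fbn2 stood at 1.07.

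In cluster 0 alone, 1 gene (Eln) was at least 1.5-fold higher and 1 (Fbn2) at least 1.5-fold lower, where 3.68% and 9.49% of genes were, and with TMM scaling Fbn2 stood at 0.667, just inside the 1.5-fold line, and Emilin1 at 1.55. In cluster 1, 1 gene (Emilin1) was called higher and 0 lower, where 3.78% and 10.7% of genes were, and with TMM scaling Efemp2 was called higher as well, at 1.63. The split of all genes turned from 28.0% of calls higher to 52.4% in cluster 0 under that scaling, from 26.0% to 56.2% in cluster 1 and from 39.0% to 54.3% in endothelial-like cells. In smooth muscle-like cells 6 genes passed the floor, of which Eln alone was above 1 and called. Their median log2 ratio was -0.27, beside -0.02 over all genes. Of all genes in this class 12.2% were called higher and 12.4% lower, and TMM scaling moved the higher part from 49.7% to 58.4% of calls. In endothelial-like cells 7 passed, and Fbln1 alone was past the fold (0.611, from 17 and 17 UMIs, interval 0.293 to 1.27), where 7.06% of genes were called higher and 11% lower.

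The members were also read together in single cells after thinning each to 1000 UMIs, which left out 4 WT and 5 Gsdme-KO fibroblast-like cells. At least 3 of the 9 genes were found in 63.7% (60.5 to 66.7) of WT and 68.2% (65.8 to 70.6) of Gsdme-KO fibroblast-like cells, and in 56.4% (42.3 to 69.7) and 49.7% (41.2 to 58.1) of smooth muscle-like cells. The share was 9.43% and 15.9% in endothelial-like and 28.1% and 31.2% in mesothelial-like cells. Among neutrophil-like cells it was 0 of 1054 and 1 of 1048. Smooth muscle-like and fibroblast-like cells therefore both carried several members at once, but Fbn2, Fbln1 and Efemp1 were part of the set in fibroblast-like cells and low in smooth muscle-like cells.

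Set against all other cells of the same library, 7 of 9 genes in WT and 6 of 9 in Gsdme-KO were at least 4-fold higher in fibroblast-like cells, where 11.4% and 9.48% of all genes were. Eln (2.66 and 1.03) and Emilin1 (2.12 and 2.54) were not among them in either library, nor was Fbln5 in the Gsdme-KO library (5.81 and 3.38). In smooth muscle-like cells Eln (46.5 and 65.5) and Fbln5 (23.2 and 15.7) were past 4-fold in both libraries and Emilin1 in WT (4.71 and 2.67), where 7.02% and 5.34% of genes were. In endothelial-like cells Fbln5 (4.77 and 4.19) was past 4-fold in both libraries and Eln in WT (7.36 and 3.05), where 7.53% and 6.67% of genes were, and that Eln value rests on the 1 cell named above. For Fbln5, 1 cell held 143 of 400 WT UMIs and 1 held 134 of 697 Gsdme-KO UMIs. Without these cells its level was 359 and 469 CPM, less than 4-fold above the 113 and 137 CPM of other cells. Between cluster 1 and cluster 0, the share of all genes at least 1.5-fold higher was 7.64% and 6.95% and at least as much lower 8.35% and 8.49%. Fbn1 and Efemp1 were higher and Eln and Fbln1 lower by that measure in both libraries. Emilin1 was lower in WT (0.609), and Fbn2 and Efemp2 were higher in the Gsdme-KO library.

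Likeness across cell types was measured by Pearson's r of log2(CPM + 1) over 20 sums, 10 classes in 2 libraries, for 13488 genes. These points share libraries and clusters, so r is a description. The gene most like Eln was Fbln5 (r = 0.97), followed by Igfbp7 and Ccn2. For Fbln5 they were Igfbp7 (r = 0.99), Ppic and Eln. Fbn1 was most like the fibrillar collagen gene Col3a1 (r = 0.99), Ccdc80 and Mfap5, a microfibril-associated glycoprotein. Fbn2 was most like Ptx3 (r = 0.95), Tnfaip6 and Ugdh, genes that act in hyaluronan matrix. Fbln1 was most like Dpep1, Dpt and Dcn, and Efemp1 most like Dpt, Scara5 and Dpep1. Fbln2 was most like Prss23, Serpinh1 and Ppic, Efemp2 most like Pcolce, Creb3l1 and Fgf2, and Emilin1 most like Rras, Ift43 and Acy3.

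Genes that act on the same fibres were mixed in fibroblast-like cells. Of 5 microfibril-associated genes 3 were higher and 2 lower in the Gsdme-KO library, with Mfap5 at 1.43 (1248 and 1788 CPM), Mfap4 at 1.27 and Mfap1a at 0.875. Of 4 genes named as latent TGF-beta binding proteins 3 were higher and 1 lower, with Ltbp2 at 1.66 (10.3 and 17.1 CPM), Ltbp4 at 0.730 and Ltbp3 at 1.06. Of 6 cross-linking genes 4 were higher and 2 lower: Lox, the enzyme that cross-links elastin, stood at 1.33 (1511 and 2014 CPM), Loxl2 at 1.30 and Atp7a, the pump that supplies its copper, at 0.629 (37.7 and 23.7 CPM). Of 7 other fibulins and emilins 4 passed the floor and 4 were lower, with Hmcn2 at 0.642 (68.2 and 43.8 CPM), Fbln7 at 0.806 and Hmcn1 at 0.869, and Emilin2 turned above 1 with TMM scaling.

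Of 8 genes of the fibrillin-binding ADAMTS family 5 passed the floor, 3 higher and 2 lower, with Adamtsl5 at 0.829, Adamts6 at 1.15 and Adamtsl3 at 0.915, which turned above 1 with TMM scaling. Of 10 receptors for elastin and fibrillin 8 passed, 3 higher and 5 lower, with Neu1 at 0.613, Ctsa at 0.774 and Itga5 at 1.32. Of 10 elastin-degrading proteases 6 passed, 1 higher and 5 lower, with Ctss, cathepsin S, at 0.481 (256 and 123 CPM), Mmp14 at 0.683 and Mmp3 at 1.37 (997 and 1369 CPM). Of the 38 genes of all 7 lists past the floor, 1 (Ltbp2, 2.63%) was called higher and 4 (Atp7a, Hmcn2, Neu1 and Ctss, 10.5%) lower, near the 3.05% and 8.44% of all genes in these cells. Ctss is abundant in macrophages, whose markers were lower in the same cells, and the part of macrophage RNA in these ratios was not tested. With TMM scaling Mfap5 and Mmp3 were called higher, the calls of Atp7a, Hmcn2 and Neu1 were lost, and Mfap3, Loxl4, Itgav, Itgb3 and Mmp2 turned above 1 as well.

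Over all kept cells, 9 of 9 genes were higher in the Gsdme-KO library and 5 by at least 1.5-fold, where 4.9% of all genes were called higher and 3.92% lower. The median log2 ratio of the 9 was 0.67, beside -0.07 over all 8963 genes. Eln was 391 CPM in the WT and 931 CPM in the Gsdme-KO library (2.38), Efemp2 30.7 and 60.1 CPM (1.96), Fbn1 652 and 1154.5 CPM (1.77), Fbln2 435 and 761 CPM (1.75) and Efemp1 219 and 349 CPM (1.59). Fibroblast-like cells made up 12.5% of the WT and 17.0% of the Gsdme-KO library, so both levels and cell numbers enter these sums. With Gsdme-KO levels set at the WT makeup of 26 clusters, Eln stood at 1.8, Efemp2 at 1.31, Emilin1 at 1.27, Fbln2 at 1.20 and Fbn1 at 1.10, and Efemp1 (0.969), Fbn2 (0.891), Fbln1 (0.880) and Fbln5 (0.859) were below 1. With WT levels at the Gsdme-KO makeup all 9 were above 1, from 1.09 for Emilin1 to 1.62 for Fbn1. The share of cells of each kind in a suspension also depends on how the tissue was digested, and with 1 library a genotype it cannot be told apart from the genotype.

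**Figure D4:**
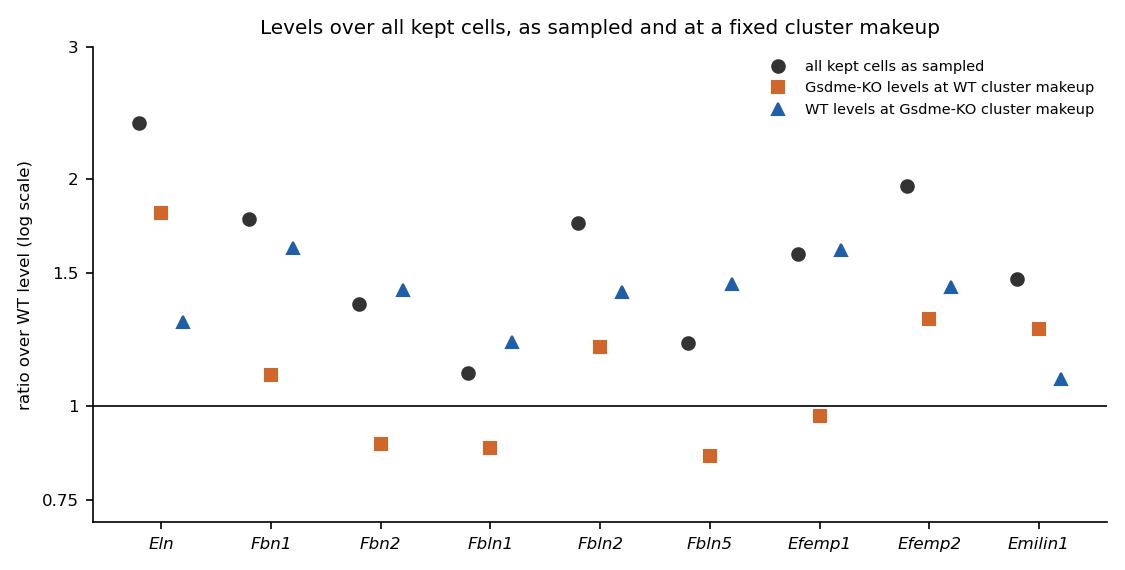
Level over all kept cells relative to the WT level (log scale) for each gene, as sampled (black circles), with Gsdme-KO levels at the WT cluster makeup (orange squares) and with WT levels at the Gsdme-KO makeup (blue triangles). At the WT makeup Eln stays highest (1.8) and 4 genes lie below 1.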

How the data were processed

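Cells of PPE-treated abdominal aorta, in 1 WT and 1 Gsdme-KO library, were freed with collagenase I and DNase I and loaded on BD Rhapsody, per the labels' protocols. The authors deposited whole-number counts per gene and barcode, without normalization. That these are UMIs follows from the platform. CASAVA 1.8, STARsolo and mm10 are named in the submitters' processing notes, with no role or order. Not given in the sources used here were the annotation and the use of strand. Cells with at least 500 UMIs, 250 genes and at most 25% mitochondrial UMIs were kept. Scrublet marked 0 WT cells and 1 Gsdme-KO cell, so it had not worked and doublets remain. Cells were scaled to 10000 UMIs, 2000 variable genes without the 59 list genes were taken with library as batch, and Leiden clustering on 30 components and 15 neighbours (scanpy 1.11.5, resolution 1) found 26 clusters. Classes were named "X-like" from marker lists, with at least 3 markers each in at least 25% of cells. In alternative clusterings a cluster held back only by another class's marker took its name where most of its cells had that class in the main clustering.

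UMIs were summed per class and library. Levels carry Poisson, shares Clopper-Pearson and ratios conditional binomial intervals at 95%, exact and for counting error only. The ratio intervals alone were checked on simulated counts. These were drawn from the Poisson model that the intervals assume, without spread between cells, so the check covers the computation only. Ratios needed 50 cells in each library, and a ratio of 1.5 either way was counted as called. All 9 members are named, and from each of 7 pathway lists the 3 genes furthest from a ratio of 1. Members and lists were chosen with earlier results of these data known. Alternatives were other cell filters, clusterings, scalings (edgeR TMM factors, median of ratios), thinning, means over cells, fixed cluster weights and no floor. Chosen after seeing the data were the marker, mitochondrial and makeup splits, and leaving out shared barcodes, the highest cell or cells with more macrophage marker UMIs.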

Additional observations from a re-analysis of the deposited data

Results flagged for a closer look

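For 4 genes the difference between the libraries pointed one way in one group of cells and the other way in another, with counting intervals that left out 1 on both sides. The difference between the groups of cells was not tested, because each value compares 1 library with 1 library. Fbn1 stood at 0.794 in smooth muscle-like cells (Gsdme-KO over WT) but at 1.24 in fibroblast-like cluster 0 and 1.03 in cluster 1. Fbln2 stood at 0.718 in smooth muscle-like cells, 1.13 in cluster 0 and 1.3 in cluster 1. The smooth muscle-like values of both genes were above 1 with the libraries clustered separately, when 78 Gsdme-KO cells, 76 of them from cluster 0, joined the class. Cells that were smooth muscle-like in both clusterings had 925 and 715 CPM of Fbn1 and 1180 and 813 CPM of Fbln2 in the WT and the Gsdme-KO library. Fbn2 stood at 0.604 in cluster 0 and 1.13 in cluster 1. Fbln1 stood at 0.838 in cluster 0 and 1.08 in cluster 1. With TMM scaling these pairs were 0.667 and 1.27 for Fbn2 and 0.926 and 1.21 for Fbln1, on the same sides of 1.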

How the results depend on the processing

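In fibroblast-like cells the median log2 ratio of the 9 genes (0.27) was above 0 under each of 16 alternatives, from 0.11 to 0.44. It was 0.44 with TMM factors and 0.44 with median-of-ratios factors, 0.22 with the libraries clustered separately, 0.22 as a mean over cells, 0.14 with cells thinned to 1000 UMIs and 0.11 with the same cluster weights in both libraries. The count of genes at least 1.5-fold apart (0) was 2 with TMM factors and 2 with median-of-ratios factors (Efemp2 and Emilin1). With these factors 6.24% and 6.29% of all genes were that much higher and 4.70% and 4.67% that much lower. The count was 2 with the same cluster weights (Eln and Emilin1) and 1 with cells thinned to 1000 UMIs (Efemp2). It was also 1 at a maximum of 10% mitochondrial UMIs (Emilin1) and 1 at a common share of macrophage marker UMIs (Efemp2). For settings other than the scaling factors no share of all genes was computed, so those counts are not read as a result. Eln in smooth muscle-like cells (2.36) was 2.48 with TMM factors, 2.49 with median-of-ratios factors, 2.29 as a mean over cells, 2.29 with the list genes among the variable genes and 1.28 with the libraries clustered separately. The 1.28 came with the 78 joining Gsdme-KO cells, at 2088 CPM. Cells that were smooth muscle-like in both clusterings had 12536 CPM in the WT and 28506 CPM in the Gsdme-KO library. The cause of the other shifts was not tested. In fibroblast-like cells Eln, Fbn1, Fbln1, Fbln2, Fbln5 and Efemp2 kept their side of 1 in 16 of 16 alternatives. The other ratios that crossed 1 were Fbn2 in 3 of 16 (1.03 with either factor and 1.07 at a common macrophage share), Efemp1 in 1 (0.965 with the same cluster weights) and Emilin1 in 1 (0.999 when thinned). No ratio was computed for smooth muscle-like cells at a maximum of 10% mitochondrial UMIs, where 45 WT cells remained, and the same cluster weights could not be applied to a class of 1 cluster. No paired analysis was possible because each genotype was 1 library. Depth limits genes with few UMIs, such as Emilin1 and Fbn2, and 1 WT cell limits Eln in endothelial-like cells (1.06, or 2.58 without the highest cell of each library).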
